A study of Mus musculus with 3 samples.

Results

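The genes described here encode the nuclear subunits of the oxidative phosphorylation system and were taken by symbol: every gene whose name starts with Ndufa, Ndufb, Ndufc, Ndufs, Ndufv, Uqcr, Atp5, Cox4i, Cox5, Cox6, Cox7 or Cox8, plus Sdha, Sdhb, Sdhc and Sdhd. This rule gave 93 of the 31053 genes in the count tables. They comprise 36 genes of complex I, 4 of complex II, 8 of complex III, 20 of complex IV and 16 of complex V, and the prefixes also took in 8 complex I assembly factors (Ndufaf genes) and Atp5s, which encodes an ATP synthase coupling factor. At least 1 molecule was counted for 90 of them; Cox7b2, Cox8c and a second entry for Atp5o were at 0 in every barcode. The rule used names only and no measured value. The 13 mitochondrially encoded (mt-) subunits were the comparison set.

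Oxidative phosphorylation passes electrons from NADH through complex I, or from succinate through complex II, to complex III, cytochrome c and complex IV, and ATP synthase, complex V, uses the resulting proton gradient. All complexes except complex II mix nuclear subunits, which are imported into the mitochondrion, with subunits made from mitochondrial DNA. Several complex IV subunits exist in alternative forms encoded by separate genes, some of them known from heart, skeletal muscle, brown fat or testis, and the choroid plexus epithelium, which secretes cerebrospinal fluid, is known for its many mitochondria.

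Single-cell 3′ RNA libraries (10x Genomics) came from live cells sorted out of the brains of wild-type female C57BL/6 mice, 6 to 8 weeks old when obtained, that carried implanted mouse brain tumor-initiating cells of the BT0309 line from NPcis (Nf1, Trp53) mice in the right striatum. The library vehicle control replicate 2 stands for saline injections. For niacin replicates 1 and 2 the animals received 100 mg/kg of niacin intraperitoneally each day, beginning on day 7. All 3 pools were taken 4 weeks after implantation as a 2 mm slice around the injection site and passed through Percoll, which enriches leukocytes. Each pool held 5 mice by the methods and 4 brain tissues by the labels, so 1 library stands for several animals and no spread between vehicle pools could be measured.

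The libraries held 2145 to 2532 barcodes and 8301228 to 10359526 unique molecular identifiers (UMIs, counted molecules). Of 5571 distinct barcodes, 924 occurred in more than 1 library, 452 of them in all 3, with a median 19.1-fold difference between their highest and lowest UMI count. Of the deepest 5% of barcodes, 111 of 114 in the vehicle library, 107 of 107 in niacin library 1 and 123 of 127 in niacin library 2 were shared. Since a cell cannot be in 3 pools, shared barcodes were left out, and values that include them are given where they move a result. After barcodes with under 200 genes or over 20% mitochondrial UMIs were removed, lineage marker UMIs set the class of 2943 barcodes. Classes are named for their markers (microglia-like and so on), and the suffix is dropped from here on. Some markers that took no part in the assignment were then compared between classes: Ttr and Enpp2 summed to 202340 to 321660 counts per 1000000 non-mitochondrial UMIs (CPM) in choroid plexus cells and at most 391 in the other classes compared. Lyz2, Ly6c2 and S100a4 were less exclusive, with 7819 to 12901 CPM in monocytes and macrophages and 2050 to 10244 CPM in neutrophils.

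Shares of the non-mitochondrial UMIs taken by the nuclear set were compared between the 6 classes with at least 10 barcodes in every library. Among these 6, microglia had the lowest mean share, 0.799% in the vehicle library and 0.773% and 0.931% in niacin libraries 1 and 2 (0.834% ± 0.0844, SD, n = 3 libraries). Neutrophils followed with 1.07%, 0.870% and 0.800% in the same order (0.913% ± 0.139). The B cells had 1.29%, 1.48% and 1.53%, and monocytes and macrophages 1.21%, 1.43% and 1.67%. T cells reached 1.33%, 1.496% and 1.86%. Choroid plexus cells stood apart with 5.63%, 6.52% and 7.88% (6.68% ± 1.13), and every choroid plexus library lay above every library of the other 5. Neutrophil and microglia libraries overlapped, as did those of B cells, T cells, and monocytes and macrophages. Counting error was small beside the gap between choroid plexus cells and the other 5. The interval that was widest relative to its value among these 18 (exact 95% binomial) ran from 1.19% to 1.39%, in the B cells of the vehicle library. That interval holds the vehicle values of monocytes and macrophages (1.21%) and of T cells (1.33%). With 3 libraries an exact two-sided sign-flip test cannot go below p = 0.25, so the shares are given without a test and the genes were tested instead.

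**Figure D1:**
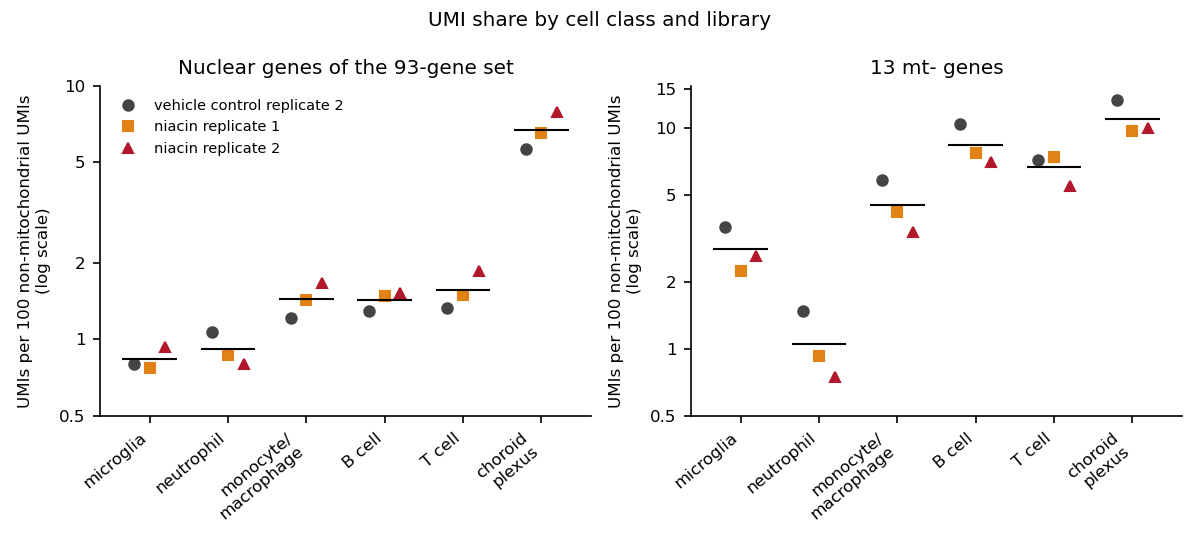
UMIs of the nuclear genes (left) and of the 13 mt- genes (right) per 100 non-mitochondrial UMIs, on a log axis, for 6 cell classes; each point is 1 library and each line the mean of 3 libraries. Choroid plexus cells are highest on both panels, at means of 6.68% and 11.0%, while of these 6 neutrophils have the lowest mean for mt- genes (1.05%) and microglia for nuclear genes (0.834%).

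The mt- genes followed another order. Neutrophils were lowest, with 1.48%, 0.933% and 0.745% of the non-mitochondrial total, then microglia with 3.58%, 2.26% and 2.64%. Monocytes and macrophages had 5.84%, 4.18% and 3.39%, T cells 7.17%, 7.41% and 5.45% and B cells 10.4%, 7.74% and 7.01%. Choroid plexus cells had 13.4%, 9.65% and 10.0%. The ratio of mt- to nuclear UMIs was therefore 1.13 ± 0.234 (SD, n = 3) in neutrophils, 1.71 ± 0.587 in choroid plexus cells, 3.41 ± 0.927 in microglia and 5.96 ± 1.86 in B cells. In neutrophils the ratio never exceeded 1.39, and in microglia it was never under 2.84. Barcodes with over 20% mitochondrial UMIs had been removed, which limits the mt- share from above.

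With 3′ counting each transcript gives UMIs without regard to its length, so levels are set side by side between genes here. Whether other properties of a gene, such as reads shared with related sequences, moved its count was not tested. Complex I contributed most in microglia, 0.278% ± 0.0282 of the non-mitochondrial UMIs, followed by complex V with 0.224% ± 0.0232 and complex IV with 0.207% ± 0.0242. Complex III gave 0.0803% ± 0.00790 there and complex II 0.0262% ± 0.00261. In choroid plexus cells complex IV was the largest at 2.02% ± 0.349, ahead of complex I at 1.92% ± 0.353 and complex V at 1.83% ± 0.296, differences smaller than their spread. The most abundant member of each complex over all barcodes was Ndufa13 (7140 UMIs) for complex I, Sdha (2609) for complex II, Uqcrh (10305) for complex III, Cox8a (17844) for complex IV and Atp5e (13543) for complex V. Among the assembly factors Ndufaf8 led with 1501 UMIs. Of the 2 entries named Atp5o, ENSMUSG00000022956 held all 4226 UMIs.

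These genes are spread over 19 chromosomes, so the shared sequence that could be looked for was in their promoters. RefSeq promoters (GRCm38.p6, 250 bases before to 50 after the start site) were found for 76 of the 92 member symbols, 2 of them by synonym, and gave 81 promoters. The palindromic site of NRF1, a regulator of respiratory chain genes, was searched as GCGCA, any base and GCGC on both strands and occurred in 20 of the 81 (24.7%), against 4.60% of all 32851 promoters. The ETS core bound by GABPA (ACTTCCGG, both strands) occurred in 5 of them (6.17%, against 3.89%), and the core of the YY1 site in 6 (7.41%, against 0.852%). Member promoters were also richer in G and C, with a median of 58.3% against 52.7%, and no adjustment was made for this. The 110 bases before the start site are shown for 5 genes described in the results, as examples of promoters with 3 matches, 1 match, or the ETS core alone; capitals mark NRF1 palindromes in the first 4 and the ETS core in Uqcrh.
Sdha (chr13:74350241-74350350, minus strand): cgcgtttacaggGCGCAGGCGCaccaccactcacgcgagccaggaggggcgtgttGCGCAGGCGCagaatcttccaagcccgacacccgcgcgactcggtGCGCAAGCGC
Sdhd (chr9:50603850-50603959, minus strand): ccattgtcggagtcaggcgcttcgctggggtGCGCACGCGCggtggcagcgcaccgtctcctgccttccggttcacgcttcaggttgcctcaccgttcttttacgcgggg
Atp5g2 (chr15:102671048-102671157, minus strand): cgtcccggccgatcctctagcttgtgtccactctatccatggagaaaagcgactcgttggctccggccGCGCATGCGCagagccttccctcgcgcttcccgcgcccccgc
Ndufa11 (chr17:56717652-56717761, plus strand): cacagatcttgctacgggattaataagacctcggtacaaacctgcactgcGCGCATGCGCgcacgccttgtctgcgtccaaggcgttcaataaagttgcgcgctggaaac
Uqcrh (chr4:116075071-116075180, minus strand): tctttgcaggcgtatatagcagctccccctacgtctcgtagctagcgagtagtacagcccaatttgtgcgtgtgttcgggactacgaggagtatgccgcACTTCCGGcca
A match describes these letters only. No binding was measured.

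Choroid plexus cells had more RNA of nearly every nuclear subunit than microglia. Of the 87 members tested by edgeR's quasi-likelihood method with library as a block, 83 were higher at an adjusted p under 0.05 and 0 lower; over all 9804 genes tested 26.0% were called higher and 38.6% lower (64.6% in either direction). The median log2 fold change of the members was 2.97, against -0.51 for all genes tested, and 85 of the 87 were higher in each of the 3 libraries. DESeq2 called 79 members higher and 0 lower. The 2 tested members that had under 10 UMIs in microglia were Cox8b (1 UMI) and Cox7a1 (3 UMIs). Both passed the filter through the choroid plexus cells alone, and their higher calls followed from that. At an unadjusted p under 0.05, 84 of the 87 differed, none of them lower, against 6652 of all 9804 genes in either direction.

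The size of the difference varied by complex. Complex IV genes had a median log2 fold change of 3.61 (15 of 15 higher), complex V 3.45 (15 of 15), complex III 3.36 (8 of 8) and complex I 2.92 (35 of 36). Complex II came after these with a median of 1.70 (4 of 4 higher), and the complex I assembly factors had 1.45 (6 of 8 higher). The 15 complex IV genes include Cox8b and Cox7a1, which passed the filter through choroid plexus cells alone. A complex IV median and count without them were not computed. Sdha, the flavoprotein that oxidizes succinate, was at 341, 192 and 210 CPM in the choroid plexus cells of the vehicle library and niacin libraries 1 and 2, and at 98.1, 84.1 and 95.5 CPM in microglia (log2 fold change 1.57 ± 0.22, SE). Sdhb, the iron-sulfur subunit, showed 1.53, and the membrane anchors Sdhc and Sdhd 2.78 and 1.83, each higher in all 3 libraries. Summed over its 4 genes, complex II was 3.41-, 2.87- and 3.27-fold higher than in microglia, and complex IV 8.21-, 10.9- and 10.1-fold. The mt- genes were all called higher, with a median of 2.18 and a range of 1.70 to 2.54.

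Among complex I genes the accessory subunits Ndufa11 and Ndufa1 changed most. Ndufa11 was at 904, 876 and 1323 CPM in choroid plexus cells against 55.0, 63.6 and 57.4 in microglia (log2 fold change 4.35 ± 0.22). Ndufa1 was at 833, 1272 and 1250 CPM against 66.2, 60.5 and 68.4 (4.32). The groups were far apart in both genes. Ndufa9, an accessory subunit near the ubiquinone site, was the complex I gene that was not called, at 87.3, 79.2 and 114 CPM against 71.8, 75.9 and 83.7 (0.54, adjusted p = 0.0645). In complex III, Uqcr10, a small accessory subunit, reached 1158, 1363 and 1755 CPM against 75.6, 67.7 and 94.7 (4.38 ± 0.22), while the core subunits Uqcrc1 and Uqcrc2 stood at 1.75 and 1.79.

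**Figure D2:**
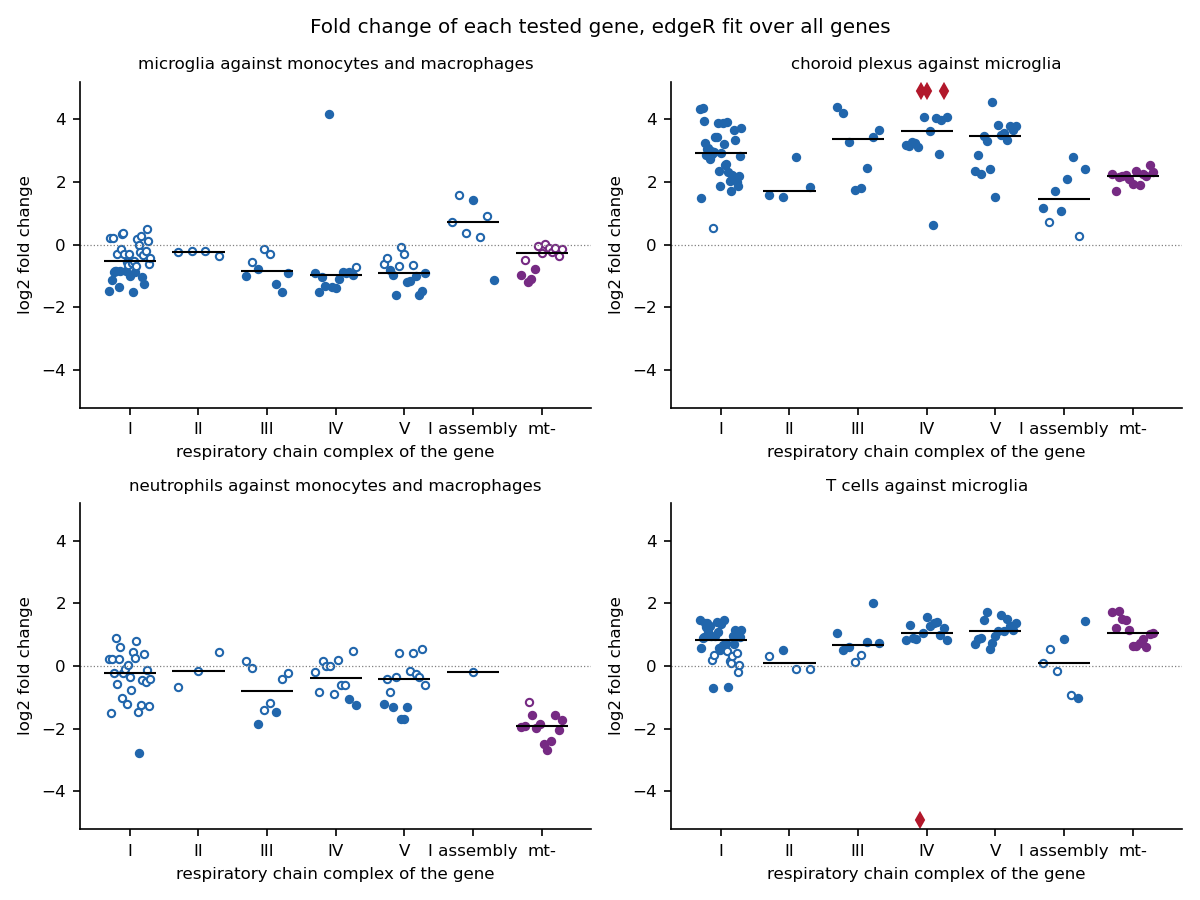
Log2 fold change of each tested gene by complex in the 4 comparisons; filled points passed an adjusted p of 0.05, open points did not, lines are medians, and red diamonds mark genes beyond the axis limits, drawn at the edge. Nuclear genes lie above 0 in choroid plexus cells and mostly above 0 in T cells relative to microglia, and in neutrophils the median of the mt- genes (-1.92) lies below the median of every nuclear complex.

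ATP synthase has 3 genes for the same c subunit of its membrane ring, and they did not move alike. In choroid plexus cells Atp5g1 reached 1293, 2149 and 2964 CPM against 89.3, 89.1 and 130 in microglia, the largest change in complex V (log2 fold change 4.56 ± 0.23, adjusted p = 1.46e-84). Atp5g3 was at 1126, 769 and 1054 CPM against 112, 61.4 and 75.1 (3.81). Atp5g2, the most abundant of the 3 in microglia at 226, 179 and 236 CPM, was at 428, 554 and 577 CPM in choroid plexus cells (1.51). Atp5g1 was therefore the lowest or second lowest c subunit gene in microglia and the highest in every choroid plexus library. Atp5g genes have related sequences, and how reads shared between copies were counted was not tested.

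Alternative forms of complex IV subunits marked the choroid plexus cells. Cox8b, a form of subunit 8 known from heart, muscle and brown fat, was at 357, 311 and 523 CPM there and at 0, 0 and 0.268 CPM in microglia, which is 1 UMI in all. Pooled over libraries, the ratio was 3299-fold with an exact 95% interval of 588- to 130727-fold, which covers counting error only. Cox8b was counted in 8 of 25, 17 of 50 and 48 of 95 choroid plexus barcodes, with medians of 5624, 3505 and 4160 UMIs per barcode, and in 0 of 356, 0 of 628 and 1 of 893 microglia with medians of 3517, 3162.5 and 4186 UMIs.
Cox7a1, the heart and muscle form of subunit 7a, was at 31.7, 84.8 and 184 CPM against 0, 0 and 0.805, which is 90 UMIs against 3 (pooled ratio 328, interval 109 to 1619). Cox6b2, the form of subunit 6b known from testis, was at 246, 356 and 362 CPM against 1.87, 4.09 and 4.29 (log2 fold change 6.73 ± 0.29, adjusted p = 1.26e-113), and was counted in 13 of 25, 30 of 50 and 61 of 95 choroid plexus barcodes, against 2 of 356, 6 of 628 and 14 of 893 microglia. The widely expressed partner of each was more abundant in the same cells: Cox8a at 2412 to 4331 CPM, Cox7a2 at 920 to 1439 CPM and Cox6b1 at 1007 to 1297 CPM. Cox7a2l, related to Cox7a2 and known for joining complexes III and IV, had the smallest difference of the tested complex IV genes, at 182, 209 and 207 CPM against 119, 145 and 186 (log2 fold change 0.62, adjusted p = 0.00877).

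All 3 of these genes lie on chromosome 7 in GRCm38 (Cox6b2 at 4751792 to 4753094, Cox7a1 at 30184144 to 30186078 and Cox8b at 140898945 to 140900446), far from each other. Cox6a2, also on chromosome 7 (128205435 to 128206387) and the heart and muscle form of subunit 6a, had another pattern. It was at 25.0, 9.09 and 9.12 CPM in microglia and at 0 in every library of choroid plexus cells, neutrophils and T cells. Where 0 UMIs were counted, 3 counts over the group were taken as the limit. The pooled microglial level of 12.5 CPM was 6.62-fold that limit in T cells and 2.87-fold that limit in choroid plexus cells. Exact intervals for the ratios to T cells and choroid plexus cells had lower ends of 5.28 and 2.29, and they cover counting error only. In monocytes and macrophages 1 UMI was counted (ratio 13.7, interval 2.40 to 546). Only 11 of 356, 16 of 628 and 27 of 893 microglia held a UMI, and 1 barcode held 20 of the 40 UMIs of the vehicle library. Among B cells 4 UMIs were counted, all in niacin library 1. Its common partner Cox6a1 was at 117, 81.8 and 105 CPM in microglia. Cox4i2, the form of subunit 4 known from lung and low oxygen, had 27 UMIs in all barcodes against 16864 for Cox4i1, and Ndufa4l2 had 3 against 9867 for Ndufa4.

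**Figure D3:**
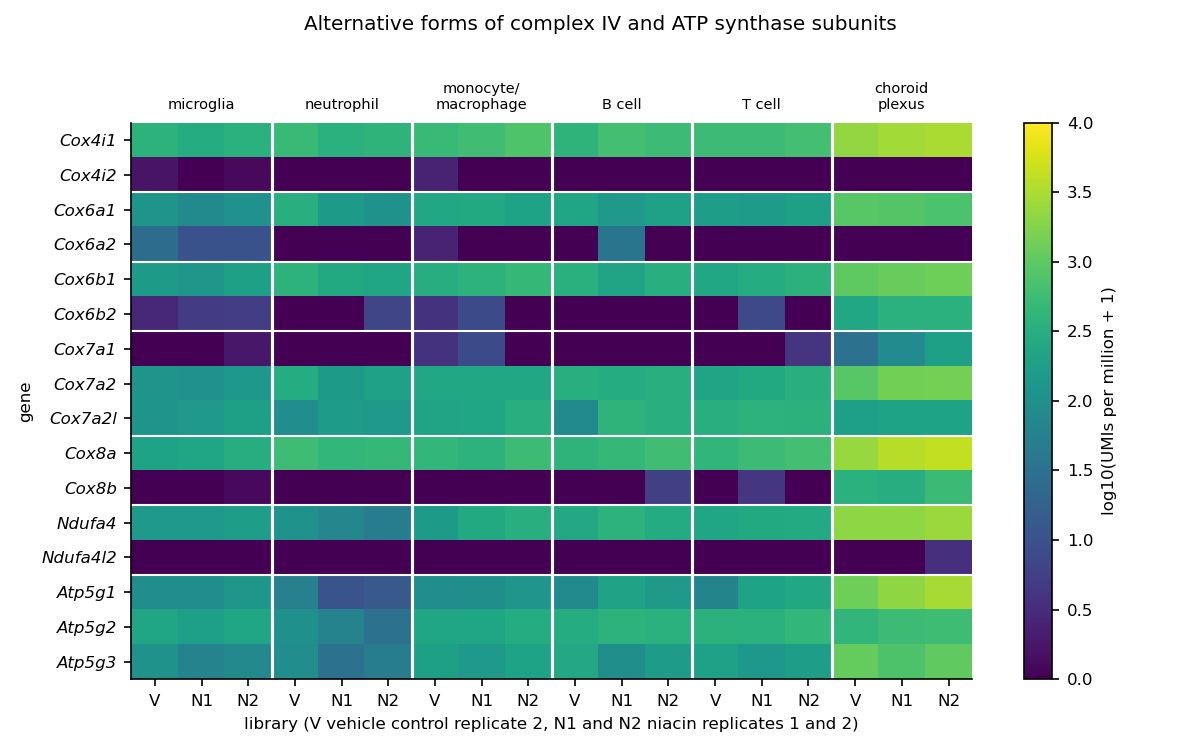
CPM of paralogous subunit genes, as log10(CPM + 1), in 3 libraries of 6 cell classes; white lines separate classes and families. Cox6b2, Cox7a1 and Cox8b are highest in the choroid plexus columns (31.7 to 523 CPM), Cox6a2 is highest in 1 B cell library and the microglia columns, with 1 UMI in the vehicle monocytes and macrophages, and Atp5g1 is brightest in choroid plexus cells.

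Choroid plexus barcodes differed from the others in a further respect. Malat1, a long noncoding RNA retained in the nucleus, took 0.0190%, 0.0124% and 0.0225% of their non-mitochondrial UMIs, against 4.40%, 7.75% and 6.20% in microglia. Ttr, the main secretory product of this epithelium, took 169308 to 299069 CPM. Without Ttr, hemoglobin and S100a8/S100a9 in the denominator the nuclear set made up 8.87% of choroid plexus UMIs. Cytoplasmic ribosomal protein genes, another group of short abundant mRNAs, were higher in choroid plexus cells in 45 of 80 tested (median log2 fold change 0.52). Over all genes tested 26.0% were higher. The part of these features in the subunit result was not tested.

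Microglia had less RNA of many subunits than monocytes and macrophages of the same libraries. Of 84 members tested, 39 (46.4%) were lower and 2 higher, against 15.9% lower and 17.4% higher (33.3% either way) over all 9510 genes, and the median log2 fold change was -0.66 against 0.20. The lower calls covered 13 of 36 complex I genes, 5 of 8 of complex III, 11 of 13 tested of complex IV and 9 of 15 of complex V. Of the 4 complex II genes 0 were called by edgeR, 0 had an unadjusted p under 0.05, and DESeq2 gave adjusted p values of 0.655 to 0.849. Of all 9510 genes, 4162 had an unadjusted p under 0.05 by edgeR. Atp5e, the epsilon subunit of the ATP synthase stalk, was at 202, 210 and 241 CPM in microglia and 449, 662 and 868 CPM in monocytes and macrophages (log2 fold change -1.61 ± 0.25, adjusted p = 0.000925). The same ranking put Atp5k (-1.60), Uqcrh (-1.53), Ndufb7 (-1.52) and Cox5a (adjusted p = 0.00138) next. It took only genes that moved 1 way in each library.

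Uqcrh, the hinge protein of complex III, was at 177, 137 and 177 CPM against 407, 397 and 562. The abundant complex IV genes Cox8a (-0.96) and Cox4i1 (-0.92) were lower as well. Of the tested members 5 had under 10 UMIs in monocytes and macrophages and passed the filter through microglia. One of them was Cox6a2, described above, whose higher call followed from that. The other higher call was Ndufaf4, an assembly factor at 24.4, 35.9 and 36.2 CPM in microglia against 8.40, 6.97 and 16.8 (1.42 ± 0.46, adjusted p = 0.0385). Assembly factors as a group had a median of 0.72, with 1 of 7 higher and 1 lower, the latter Ndufaf8 (-1.15). The genes with near equal levels included Atp5g1 (-0.09, adjusted p = 0.813) and Ndufc2 (0.16). Of the mt- genes 4 of 13 were lower, mt-Co1 (-1.19), mt-Co2 (-1.09), mt-Atp6 (-0.98) and mt-Co3 (-0.79), and the median was -0.27. Cytoplasmic ribosomal protein genes were lower in 74 of 81, with a median of -1.15. Of all genes tested 15.9% were lower.

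The count of lower members depended on which barcodes and libraries were used. It was 63 with shared barcodes kept in all libraries, 62 with each shared barcode kept where it was deepest and 26 without the deepest 5% of barcodes. It was 25 without niacin replicate 1, 12 without niacin replicate 2 and 47 without the vehicle library. How many of all genes were called under each of these settings is not given, so these counts describe the members alone. Cells of the monocyte and macrophage class also differed between libraries: Ly6c2 was at 1782 CPM in the vehicle library against 27.9 and 172 in the niacin libraries, Arg1 at 528 against 0 and 12.6, and Ear2 at 127 against 1108 and 1183. The part of this mixture was not tested.

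T cells had more subunit RNA than microglia. Of 84 members tested, 61 were higher and 4 lower, against 26.0% higher and 28.8% lower (54.8% either way) of all 9867 genes, with a median log2 fold change of 0.86 against -0.03. All 15 tested complex V genes and 12 of 13 complex IV genes were higher, with 25 of 36 of complex I, 6 of 8 of complex III and 1 of 4 of complex II, Sdhb (0.51). Uqcrh had the largest increase, at 649, 498 and 683 CPM in T cells against 177, 137 and 177 (2.00 ± 0.17, adjusted p = 3.49e-10). Atp5e (1.74), Atp5h (1.61), Cox6c (1.57) and Atp5j2 (1.52) followed. Moving 1 way in each library was a condition for naming these 5. Cox7a2l was among the genes higher in T cells, at 331, 384 and 372 CPM (1.38).

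The 4 lower genes were Cox6a2, which had 0 UMIs in T cells and passed the filter through microglia alone, the assembly factor Ndufaf7 (-1.03) and the complex I genes Ndufa9 and Ndufc2. Ndufa9 was at 36.9, 50.5 and 48.2 CPM in T cells against 71.8, 75.9 and 83.7 (-0.69 ± 0.22, adjusted p = 0.00908). Ndufc2, an accessory membrane-arm subunit, was at 75.3, 94.3 and 118 CPM against 141, 164 and 181 (-0.65 ± 0.18, adjusted p = 0.00399). In complex I as a whole 33 of 36 fold changes were positive, and 9 genes were not called. All 13 mt- genes were higher, with a median of 1.04. Ribosomal protein genes moved by more than the subunits, with 78 of 80 higher, against 26.0% of all genes, and a median of 2.31. They took 26.7% ± 5.42 of T cell UMIs against 5.64% ± 0.583 in microglia. DESeq2 called 47 members higher and 1 lower.

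Neutrophils and monocytes and macrophages differed more in mt- genes than in nuclear subunits. Of 66 members tested, 10 were lower and 0 higher, against 16.9% lower and 14.5% higher (31.4% either way) of all 3386 genes, and the median log2 fold change was -0.34 against -0.14. The share lower (15.2%) was thus near that of all genes. The mt- genes were lower in 11 of 12 tested, with a median of -1.92. Ndufc2 had the largest difference, at 15.2, 10.1 and 17.9 CPM in neutrophils against 140, 111 and 155 (-2.78 ± 0.52, adjusted p = 0.00458). It had 6 UMIs in neutrophils and was 1 of 3 tested members with under 10 there, which passed the filter through the other class. All 3 c subunit genes were among the lower calls: Atp5g2 at 99.1, 60.5 and 29.9 CPM against 235, 223 and 298 (-1.70), Atp5g1 (-1.69) and Atp5g3 (-1.30). The others were Uqcrb (-1.84), Uqcrfs1, the Rieske iron-sulfur protein of complex III (-1.47), Atp5d (-1.30), Ndufa4 (-1.25), Atp5a1 (-1.21) and Cox7c (-1.06).

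Other abundant genes of the same complexes had similar levels in both classes. Cox8a was at 579, 444 and 460 CPM in neutrophils against 448, 390 and 558, and Atp5l at 617, 504 and 490 against 437, 523 and 491 (0.55, adjusted p = 0.207). At an unadjusted p under 0.05, 20 of the 66 members differed, against 1468 of all 3386 genes. The neutrophil sums were the smallest of the 4 comparisons, from 27 to 52 barcodes per library, and the lower calls numbered 1 by DESeq2, 2 without niacin replicate 1, 2 without niacin replicate 2 and 18 without the vehicle library. Among the higher genes the count was 0 by DESeq2 as well, 3 without the vehicle library and 4 with shared barcodes kept in all libraries. S100a8, S100a9 and G0s2 together took 80746, 214134 and 328955 CPM of the neutrophil UMIs. With S100a8, S100a9, Ttr and hemoglobin left out of the total, the neutrophil share of the nuclear set became 1.16%, 1.11% and 1.19%.

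Genes that act around the respiratory chain were described from lists of their own. Cycs, which encodes cytochrome c, was at 63.7, 69.1 and 68.1 CPM in microglia and higher in choroid plexus cells (531, 560 and 702 CPM, log2 fold change 3.38) and in monocytes and macrophages (204, 202 and 172 CPM, the microglial difference being -1.59). In neutrophils it was at 45.7, 40.3 and 23.9 CPM (-2.05 against monocytes and macrophages). Cyc1, the cytochrome c1 subunit of complex III that the prefixes did not take, was higher in choroid plexus cells (2.41). On the whole list of cytochrome c and assembly genes, 12 of 27 tested (44.4%) were higher in choroid plexus cells than in microglia, against 26.0% of all genes, and 2 were lower. In T cells 8 of 29 (27.6%) were higher, near the 26.0% of all genes. In microglia relative to monocytes and macrophages 3 of 29 (10.3%) were higher and 5 (17.2%) lower, against 17.4% and 15.9% of all genes.
Of the genes of the tricarboxylic acid cycle and pyruvate dehydrogenase, 13 of 17 (76.5%) were higher in choroid plexus cells than in microglia, against 26.0% of all genes. Idh3a led at 198, 209 and 352 CPM against 25.0, 18.2 and 20.9 (3.87), and Dlst was lower (-0.81). Idh2 was higher in microglia than in monocytes and macrophages (2.16) and lower in T cells than in microglia (-2.22). Among regulators of mitochondrial biogenesis, Ppargc1a was at 111, 11.3 and 18.1 CPM in choroid plexus cells and at 0, 0.455 and 0 in microglia, whereas Nrf1 was at 7.93, 0 and 7.77 CPM against 76.8, 48.2 and 50.7 (-3.02). Mitochondrial ribosomal protein genes were higher in choroid plexus cells in 55 of 77 (71.4%, median 1.37) and in T cells in 34 of 77 (44.2%, median 0.56). Over all genes tested 26.0% were higher in either comparison, with medians of -0.51 and -0.03.

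Within a class the share of the nuclear set rose with the depth of the barcode while that of the mt- genes fell. Microglia under 2000 UMIs had 0.495%, 0.467% and 0.401% in the vehicle library and niacin libraries 1 and 2, and those of at least 2000 UMIs had 0.830%, 0.809% and 0.986%. The mt- share was 7.82%, 4.97% and 8.06% in the shallow and 3.15%, 1.93% and 2.07% in the deep barcodes. Malat1 took 7.05%, 14.0% and 13.1% against 4.14%, 7.01% and 5.47%. T cells had the same order, with 0.526%, 0.553% and 0.649% in shallow and 1.38%, 1.66% and 1.90% in deep barcodes, and the deep and shallow values did not overlap in either class. In deep barcodes only, the nuclear set took 0.875% in microglia, 1.48% in monocytes and macrophages, 1.65% in T cells and 6.70% in choroid plexus cells on average.

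**Figure D4:**
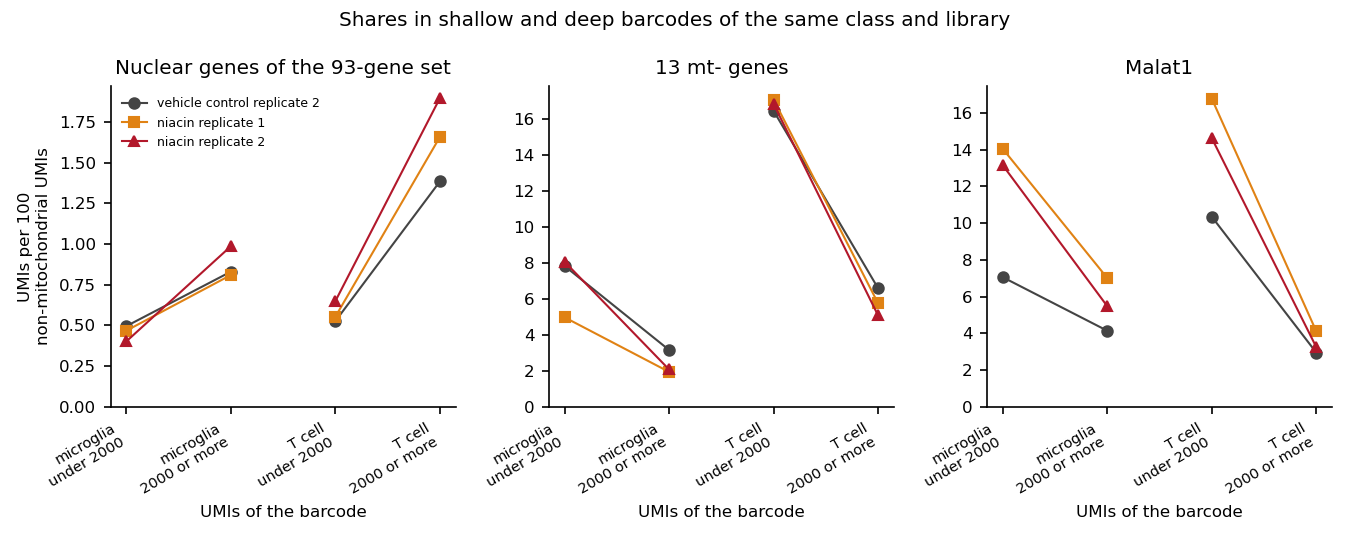
Share of the nuclear genes, the mt- genes and Malat1 in barcodes under 2000 UMIs and of 2000 or more, for microglia and T cells; each line joins the values of 1 library. In each library the nuclear share is higher and the mt- and Malat1 shares are lower in the deeper barcodes, as from 0.495% to 0.830% for nuclear genes in the microglia of the vehicle library.

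Niacin was compared with vehicle as values only, because 1 vehicle library allows no test. The libraries also differed as wholes. Over all barcodes the nuclear share was 1.34% in the vehicle library and 1.60% and 1.68% in niacin libraries 1 and 2. The mt- share was 9.25%, 4.15% and 3.88% in the same order. Barcodes that passed the filters had median depths of 2482.5, 2958 and 4231 UMIs. The part of these differences in the values below was not tested. A gene was counted where both niacin libraries differed at least 1.5-fold from the vehicle library in the same direction, among genes with a mean of at least 50 CPM. In microglia none of 70 members passed this in either direction, against 3.92% of 3622 genes higher and 8.50% lower. The nuclear share there was 0.967 and 1.16 times that of the vehicle library, values on both sides of 1. The mt- share was 0.630 and 0.737 times the vehicle value. The only mt- gene past the fold was mt-Co1, the catalytic subunit of complex IV, at 6234 CPM against 2951 and 3436. This count depended on the limit on the mitochondrial share of a barcode. Without that limit, 8 of 13 mt- genes were lower past the fold in microglia, beside 328 of all 3626 genes.

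In T cells 15 of 72 members (20.8%) were higher in both niacin libraries and 0 lower, against 6.22% and 17.1% of 3263 genes. Atp5g1 stood out at 63.0 CPM (41 UMIs) in the vehicle library against 209 and 253 CPM, ratios of 3.31 (exact 95% interval 2.20 to 5.04) and 4.02 (2.84 to 5.81). Ndufa12 (1.78 and 2.16) and Ndufs7 (1.85 and 1.92) came next. The other c subunit genes Atp5g2 (374, 357 and 439 CPM) and Atp5g3 (194, 135 and 165 CPM) did not pass. Ribosomal protein genes took 20.8% of T cell UMIs in the vehicle library and 28.1% and 31.4% in the niacin libraries, the same order as the nuclear share, and its part was not tested.

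In choroid plexus cells 14 of 83 members (16.9%) were higher and 4 lower, against 10.9% and 23.4% of 2585 genes. Cox7a1 had the largest ratio, from 4 UMIs (31.7 CPM) to 84.8 and 184 CPM, with intervals of 0.852 to 11.1 and 2.17 to 21.8. Ndufs3 (1.80 and 2.20) and Atp5g1 (1.66 and 2.29) followed. The 4 lower members were Ndufaf7 (0.356 and 0.555), Ndufa10 (0.414 and 0.642), Sdha (0.564 and 0.615) and Atp5a1 (0.537 and 0.649). With shared barcodes kept in all libraries, 5 of 83 (6.02%) were higher and 1 lower, beside 173 and 536 of 2595 genes. Without Ttr, hemoglobin, S100a8 and S100a9 in the total, 27 of 83 were higher and 1 lower, beside 554 and 597 of 3236 genes.
In monocytes and macrophages 9 of 70 (12.9%) were higher and 0 lower, against 16.5% and 16.1% of 3559 genes, with Ndufb4 at 64.4 CPM against 132 and 193, Ndufv2 at 49.0 against 97.6 and 109 and Ndufb11 at 89.6 against 174 and 193. The class held 31 and 41 barcodes in the niacin libraries and the mixture given above.

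In neutrophils 14 of 53 members (26.4%) were lower and 3 higher, against 33.9% and 7.57% of 2669 genes, so the lower share was under that of all genes. Without S100a8, S100a9, Ttr and hemoglobin in the total, 6 of 56 members were higher and 4 lower, beside 412 and 686 of 3102 genes. The median log2 ratio of the members was then 0.03 in place of -0.33. The counts were small: Ndufb5 had 15 UMIs in the vehicle library against 3 and 4 (ratio 0.265, interval 0.0491 to 0.935, and 0.209, interval 0.0505 to 0.656), Ndufs7 had 14 against 1 and 9 (0.0945, interval 0.00224 to 0.621, and 0.504, interval 0.192 to 1.25) and Ndufb3 23 against 5 and 14. Uqcrq (2.51 and 1.88) and Ndufb4 (2.21 and 1.70) were higher, as was Cox7a2l (91.4 against 161 and 137 CPM). With shared barcodes kept where they were deepest, 5 of 57 members were lower and 2 higher, beside 1101 and 117 of 2303 genes.

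Cycling microglia, defined by at least 3 UMIs of at least 2 of 12 cell cycle genes, numbered 8, 1 and 4, under the 10 per library needed for a sum, so no test was made. The 8 in the vehicle library held 1.25% of their non-mitochondrial UMIs in the nuclear set (exact 95% binomial interval 1.17% to 1.34%) against 0.769% in 322 microglia without a cell cycle UMI, and the 4 in niacin library 2 held 2.38% against 0.918%. Their median depth was 8973.5 UMIs in the vehicle library against 3138.5.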

How the data were processed

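Droplet single-cell RNA-seq UMI counts of 3 libraries were analyzed as deposited by the authors, who used Chromium 3′ v3.1 chemistry, and Cell Ranger 3.1, STAR and mm10 per the submitters' notes. The values are whole numbers that are not normalized. Gene coordinates came from GENCODE M21 (GRCm38). The members and gene lists were chosen with earlier results of these data known.

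Barcodes found in more than 1 library were removed. A barcode took a class with at least 3 lineage UMIs from at least 2 markers and at least 75% of its lineage UMIs in that class, which also drops mixed-lineage doublets; no doublet caller was run. UMIs of each class were added up within a library, and sums of at least 10 barcodes were tested with edgeR 4.0.16 in R 4.3.3 (filterByExpr, TMM factors and library size from non-mitochondrial genes, library as a block, quasi-likelihood F test, Benjamini-Hochberg over all genes tested, standard error from the fold change and F). Classes of 1 library come from the same pool, which is what the block pairs. Of the 93 members, 66 to 87 passed the filter. With library as a block, p-values measure how the class difference varied between these 3 libraries. The spread estimate of a gene also borrows from the other genes tested. Spread between single animals is not measured. DESeq2 1.42.0 was an alternative. The method was tested on simulated data with 200 changed genes per comparison.

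Named genes were, per comparison, up to 5 members with the largest positive and 5 with the largest negative change among members called at 0.05 that moved 1 way in each library and averaged 50 CPM or more, plus the most abundant member of each complex, Sdha to Sdhd, paralogous subunits and, for niacin, the 3 largest ratios each way; further members were named after their values were seen. Intervals are exact (binomial or conditional binomial) at 95% and cover counting error only. One check of the microglia class is not reported here.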

Additional observations from a re-analysis of the deposited data

Results flagged for a closer look

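Relative to the vehicle library, the share of the nuclear subunits lay on the same side in both niacin libraries in 5 of 6 classes, but not on the same side in each. In microglia the values were 0.967 and 1.16 times vehicle, on both sides of 1. The share was lower in neutrophils, at a mean of 0.782 times the vehicle value (0.814 and 0.749). It was higher in monocytes and macrophages (mean 1.28, from 1.18 and 1.38) and T cells (mean 1.26, from 1.12 and 1.39). The same held for B cells (mean 1.17, from 1.15 and 1.18) and choroid plexus cells (mean 1.28, from 1.16 and 1.40). Over all barcodes the share was 1.34% in the vehicle library and 1.60% and 1.68% in niacin libraries 1 and 2. Depth differed between the libraries as well, as given above, and its part was not tested. The difference between classes was not tested, since 1 vehicle library supplies the denominator of all these ratios. Beside it, S100a8, S100a9 and G0s2 summed to 80746 CPM in vehicle neutrophils and to 214134 and 328955 CPM in the niacin libraries, and without S100a8, S100a9, Ttr and hemoglobin in the total the neutrophil share was 1.16%, 1.11% and 1.19%.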

How the results depend on the processing

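Each tested comparison was recomputed under 17 alternatives. For microglia against monocytes and macrophages, 2 members were higher: 0 by DESeq2 and 1 each with 90% marker purity, at least 5 marker UMIs, barcodes of at least 2000 UMIs or without the deepest 5%, and 0 to 1 with a library left out. The 39 lower members became 63 or 62 with shared barcodes kept (in all libraries, or where deepest) and 12 to 47 with a library left out. In choroid plexus cells 1 member was lower with no filter on low counts and with shared barcodes kept either way. In neutrophils 1 member was higher with RLE normalization or no mitochondrial limit, 4 or 1 with shared barcodes kept, 2 with all classes in one fit and 0 to 3 with a library left out; the 10 lower became 1 by DESeq2, 6 with at least 5 marker UMIs, 18 with all classes in one fit and 2 to 18 with a library left out. In T cells DESeq2 called 1 lower. For the tested comparisons the number of all genes called under each alternative, DESeq2 included, is not given here or above. The causes were not tested.

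Without the replicate block, 41 members were lower and 2 higher in microglia, 83 higher in choroid plexus cells, 9 lower in neutrophils, and 52 higher and 3 lower in T cells, so leaving out the block moved no count by over 1.5 times.

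The share became 0.943% or 0.939% in microglia and 1.76% or 1.75% in monocytes and macrophages with shared barcodes kept, 1.23% in B cells with no mitochondrial limit, and 1.15% in neutrophils and 8.87% in choroid plexus cells without hemoglobin genes, Ttr, S100a8 and S100a9. Under that last denominator the niacin counts became 6 higher and 4 lower in neutrophils and 27 higher and 1 lower in choroid plexus cells. Over all genes they were 412 and 686 of 3102 in neutrophils and 554 and 597 of 3236 in choroid plexus cells. With shared barcodes kept, the niacin counts of members became 0 or 1 higher and 1 lower in microglia. In neutrophils 8 or 5 were lower, with 1 higher when kept in all. In choroid plexus cells 1 was lower, with 5 higher when kept in all, beside 536 lower and 173 higher of 2595 genes there. Choroid plexus cells had 1 lower with no mitochondrial limit and 2 over all UMIs. With 90% purity 1 was lower in microglia and 1 in T cells. Without the deepest 5%, 1 was lower in microglia, 16 higher in monocytes and macrophages and 0 higher in neutrophils, where barcodes of at least 2000 UMIs gave 1. No value changed sign past a threshold. Of the single-gene values recomputed, 1897 kept their side of the threshold, 88 lost it and 21 gained it. Cycling microglia were too few for any alternative to be run.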

Other observations

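The mt- genes did not all move alike between the niacin and vehicle libraries. mt-Co1 was lower in both niacin libraries in microglia (6234 against 2951 and 3436 CPM), monocytes and macrophages (15235 against 6703 and 6530 CPM) and choroid plexus cells (22696 against 11988 and 13009 CPM). In neutrophils it was at 3277, 3146 and 2527 CPM and did not pass the 1.5-fold limit. Of the 11 mt- genes there with at least 50 CPM, 8 were lower past that limit, such as mt-Nd2 at 709 against 141 and 149 CPM. Of all 2669 genes in neutrophils 33.9% were lower past it. mt-Nd6, the mt- gene encoded on the other strand, was higher in the niacin libraries of choroid plexus cells, at 111 CPM (14 UMIs) against 300 and 290 CPM. These are values of 3 libraries with no test, and they were taken with the limit on the mitochondrial share of a barcode. Without that limit, 8 of 13 mt- genes were lower past 1.5-fold in microglia, in place of 1, beside 328 of all 3626 genes. The count became 6 of 13 in place of 2 in monocytes and macrophages, beside 623 of 3598 genes. For choroid plexus cells it was 8 of 13 in place of 2, beside 566 of 2582 genes. In neutrophils it fell to 3 of 12, beside 869 of 2680 genes. In choroid plexus cells 0 mt- genes were then higher, in place of 1.

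In barcodes that matched no class (300, 96 and 139 per library), the nuclear share was 0.975%, 1.04% and 1.46% and the mt- share 9.69%, 10.2% and 7.45%, with median depths of 1327.5, 1134 and 1056 UMIs. The classes left out of the tests for size gave 1.14%, 1.45% and 1.59% in basophils or mast cells (5, 31 and 34 barcodes), 1.13%, 0.492% and 2.13% in natural killer cells (40, 5 and 9) and 0.0548%, 0.0153% and 0.101% in erythroid cells (1, 1 and 3). The 5 dendritic cells, all in the vehicle library, gave 0.385%.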
